A study of Homo sapiens with 15 samples.

Results

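The globin family was followed across 15 one-colour microarrays of SCC13 cells, a line derived from a human squamous cell carcinoma of the skin. The 9 genes listed, HBB, HBD, HBG1, HBG2, HBE1, HBA1, HBA2, HBZ and HBQ1, were chosen by symbol, and the family itself was picked because the HBB probe was bright in cells carrying a TLR4 plasmid and dim in cells carrying the control plasmid. The values that selected HBB are therefore given as a description, without a test. Every probe whose transcript accession now belongs to one of these symbols was used. This gave 12 probes for 7 of the 9 genes, out of 20503 genes named on the array in the same way. HBB, HBD, HBE1 and HBQ1 had 1 probe each, HBG1 had 2, and HBA2 and HBZ had 3 each. HBA1 and HBG2 had none by accession. Their transcripts are near-identical to those of HBA2 and HBG1, so it is uncertain which copy the HBA2 and HBG1 probes measured.

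All cells shared the SCC13 background, growth in DMEM with 10% fetal calf serum and selection in blasticidine. SCC13-pUNO cells were stably transfected with the empty control plasmid, SCC13-TLR4 cells with a plasmid for TLR4 fused to GFP (pUNO-TLR4GFP). Each plasmid was represented by 1 stably transfected line. The methods state that SCC13-TLR4 cells were sorted for the fraction with the highest GFP signal, so that plasmid and sorting cannot be told apart. Cells were left untreated or received 10 μg/ml of ultrapure LPS, a ligand of TLR4, for 24 h. This gave 4 arrays of untreated SCC13-pUNO, 3 of untreated SCC13-TLR4, 4 of SCC13-pUNO with LPS and 4 of SCC13-TLR4 with LPS cells.

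Hemoglobin is a tetramer of alpha-type and beta-type globin chains, each holding a heme group that binds oxygen. HBE1, HBG2, HBG1, HBD and HBB lie along the same stretch of chromosome 11 in the order of their use in development, from embryonic through fetal to adult, and HBZ, HBA2, HBA1 and HBQ1 form a second cluster on chromosome 16. In erythroid cells both clusters are switched on together by distal enhancers and by factors such as GATA1, KLF1 and TAL1. Skin keratinocytes are not a tissue in which globins carry oxygen in the blood.

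Values are log2 intensities minus the 75th percentile of the array, so that 0 is the level of that percentile and a step of 1 is a doubling. They compare the same probe across arrays and say nothing of the level of one probe against another. A probe was called well above background as the scanner software marks it. The 75th percentile lay at an intensity of 192 to 420, and 47.1% to 56.2% of the spots were well above background on an array. Of 10 keratinocyte markers, 8 were well above background on all 15 arrays, among them KRT5, KRT14, TP63 and SFN. KRT6A was so on 7 arrays and PKP1 on 6. Of 6 fibroblast markers, none was above background on all arrays and 5 were so on no array. Of 6 leukocyte markers with a probe, 3 passed on all arrays (PTPRC, CD14 and SPI1), and of 5 endothelial markers 1 did (CDH5). The mark is thus also passed by dim probes of other cell types. The arrays lay on 2 slides, each of which held arrays of every group.

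One array went against its label. The TLR4 probe A_24_P69538 read between 2.84 and 3.19 on the 7 arrays of SCC13-TLR4 cells. On the arrays of untreated SCC13-pUNO cells it read -3.80, 3.04, -6.40 and -5.72 in replicates 1 to 4, and on those of SCC13-pUNO cells with LPS it lay between -6.26 and -4.74. The array labelled SCC13-pUNO untreated replicate 2 thus had the TLR4 level of the other line. It is called by its label throughout, and comparisons of untreated SCC13-pUNO cells are given with and without it. A second TLR4 probe, A_32_P66881, was well above background on no array.

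HBB, the adult beta-globin chain, was read by the probe A_23_P203558. On the arrays of untreated SCC13-TLR4 cells it had values of 3.82, 4.42 and 4.31, and on those of SCC13-TLR4 cells with LPS values of 3.96, 4.55, 4.38 and 4.29. On SCC13-pUNO arrays with LPS it had values of -5.89, -6.01, -5.19 and -5.71. On untreated SCC13-pUNO arrays it read -3.95, 4.63, -5.66 and -5.92 in replicates 1 to 4. All 7 arrays of SCC13-TLR4 cells were high and 7 arrays of SCC13-pUNO cells were low. The highest value of the 15 was that of the array labelled SCC13-pUNO untreated replicate 2. That array and the 7 SCC13-TLR4 arrays were the only ones where the probe passed the background mark. In bulk RNA, fewer cells expressing a gene and less RNA per cell cannot be told apart. HBB had only 1 probe, so no second probe could be set against it. Whether the signal came from transcripts of the HBB gene was not tested.

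Ordered by mean, the groups were SCC13-TLR4 with LPS (4.29 ± 0.25, SD, n = 4), untreated SCC13-TLR4 (4.19 ± 0.32, SD, n = 3), untreated SCC13-pUNO without the array that went against its label (-5.18 ± 1.07, SD, n = 3) and SCC13-pUNO with LPS (-5.70 ± 0.36, SD, n = 4). The first 2 groups differed by less than the SD of either. In the last 2 the probe was well above background on no array, so their order is not read. With the array labelled replicate 2 included, untreated SCC13-pUNO had a mean of -2.73 ± 4.98 (SD, n = 4). Since the probe was not above background on the dim arrays, the difference between the lines is a lower bound. The HBB probe was at least 343-fold brighter in untreated SCC13-TLR4 than in untreated SCC13-pUNO cells without that array, and at least 352-fold brighter with LPS. These bounds hold for the background subtraction of the scanner software. With normexp background correction, which adds an offset of 50 to every intensity, the measured log2 difference with LPS was 6.24, which is under the bound. Within slides, the measured log2 difference with LPS was 10.20 on slide 1 and 9.79 on slide 2. Without treatment it was 8.63 on slide 1 without the array labelled replicate 2, 5.48 with it, and 10.29 on slide 2. Slide 1 held a single untreated SCC13-TLR4 array and slide 2 a single untreated SCC13-pUNO array. Each untreated value within a slide therefore rests on a single array of a line.

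**Figure D1:**
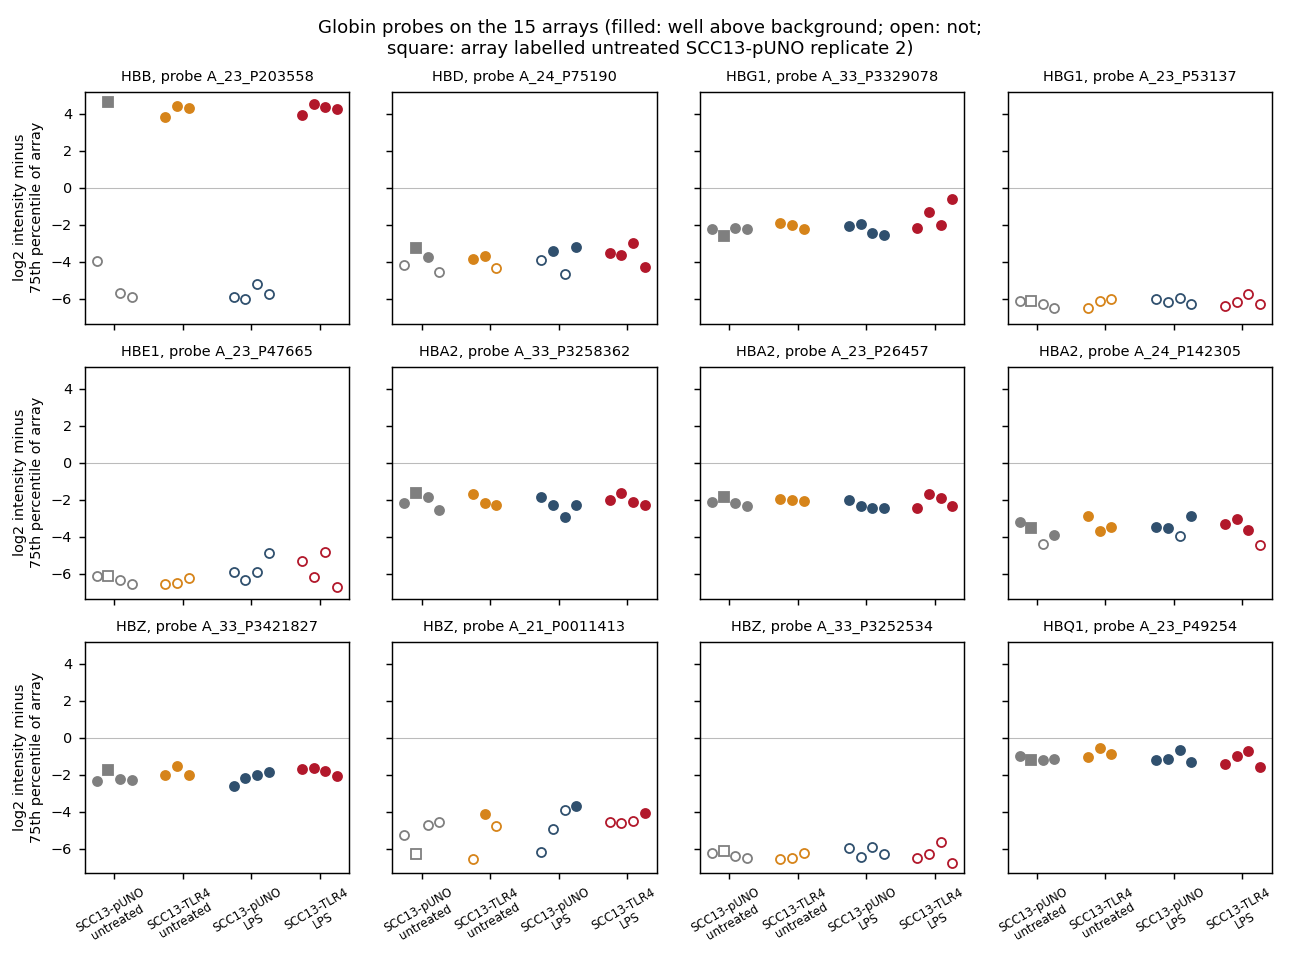
Log2 intensity minus the 75th percentile of the array (vertical axis) for each of the 12 globin probes on the 15 arrays, 1 point per array, by group (horizontal axis). HBB lies between 3.82 and 4.63 on SCC13-TLR4 arrays and the square point, and at or under -3.95 elsewhere, a split that none of the 11 other probes shows.

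The HBB probe was printed at 10 spots of each array, between rows 44 and 382 of 384, so that its level did not rest on a single spot. On the 7 SCC13-TLR4 arrays all 70 of its 70 spots were well above background. The SD between the spots of an array was 0.03 to 0.07 on the log2 scale there, while the array means varied with an SD of 0.26. Mean intensities on these arrays ran from 4624 to 8231. The array labelled SCC13-pUNO untreated replicate 2 had 10 of 10 spots well above background and a mean intensity of 7533. Over the 150 spots, 10 were marked as outliers by the software and left out.

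Untreated SCC13-pUNO replicate 1 stood between the dim and the bright arrays. Its HBB spots had a mean intensity of 19.0, with 2 of 10 spots well above background, against 4.82 to 8.0 on the 6 other dim arrays of SCC13-pUNO cells, where no spot was. That was 0.300% of the mean over the SCC13-TLR4 arrays. The TLR4 probe was also higher on this array than on those 6, with an intensity of 20.8 against 2.81 to 10.6, or 0.753% of its SCC13-TLR4 mean, and it was called well above background there. Both values are small against the signal on the bright arrays, and what gave rise to them was not tested.

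**Figure D2:**
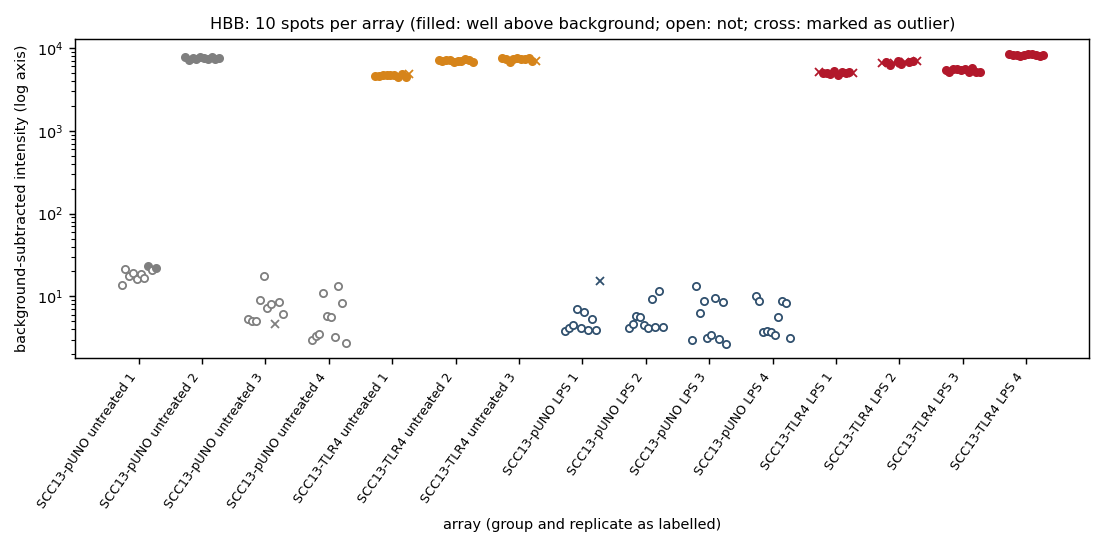
Background-subtracted intensity on a log axis (vertical) of the 10 HBB spots on each of the 15 arrays (horizontal), 1 symbol per spot. The spots of SCC13-TLR4 arrays average between 4624 and 8231 and those of the array labelled SCC13-pUNO untreated replicate 2 average 7533, while those of untreated SCC13-pUNO replicate 1 average 19.0, and the means of the 6 other arrays lie between 4.82 and 8.0.

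LPS gave no HBB difference past the test in either line. In SCC13-TLR4 cells the groups with and without LPS overlapped, and the mean was 0.11 higher with LPS (SE 1.82, limma adjusted p = 1.00). The fit shares its spread over the groups, so this SE holds the array labelled replicate 2, and it was 0.39 without that array and 0.20 when only these groups were fitted. An exact two-sided permutation test of the 4 against 3 arrays gave p = 0.571, where the smallest p possible was 0.0571. Slide 1, which held a single untreated SCC13-TLR4 array, gave a difference of 0.44, and slide 2 gave -0.03. In SCC13-pUNO cells the mean with LPS minus the mean without was -2.97 (SE 1.68, limma adjusted p = 1.00), a value that rests on the array labelled replicate 2. Without it HBB was not well above background in either group, and no difference is given.

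The other genes of the chromosome 11 cluster with a probe did not share the split, and HBG2 had none by accession. HBD, the minor adult beta-type chain, was read by 1 probe at the edge of detection. It read -4.15, -3.27, -3.74 and -4.52 on untreated SCC13-pUNO arrays and -3.84, -3.68 and -4.31 on untreated SCC13-TLR4 arrays. With LPS it read -3.91, -3.39, -4.66 and -3.19 in SCC13-pUNO and -3.52, -3.64, -2.97 and -4.29 in SCC13-TLR4 cells. The groups overlapped in both conditions. Its signal passed the background mark on 10 of 15 arrays, 4 of them SCC13-TLR4 arrays with LPS and 2 in each other group. With LPS the line difference was 0.18 (SE 0.36, limma adjusted p = 1.00).

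The fetal chain HBG1 had 2 probes that disagreed. A_23_P53137, which like the HBB probe was printed at 10 spots, was well above background on no array and lay between -6.52 and -5.76. A_33_P3329078 was well above background on all 15. It read -2.24, -2.60, -2.15 and -2.22 in untreated SCC13-pUNO and -1.89, -2.0 and -2.21 in untreated SCC13-TLR4 cells, and -2.08, -1.97, -2.42 and -2.56 in SCC13-pUNO and -2.19, -1.30, -1.99 and -0.59 in SCC13-TLR4 cells with LPS. SCC13-TLR4 replicates 2 and 4 with LPS were the highest, while replicates 1 and 3 lay within the range of SCC13-pUNO arrays. The line difference with LPS, 0.74 (SE 0.28), was the largest among the tested probes of the other globins. It was 0.43 without SCC13-TLR4 replicate 4 and 0.32 with normexp background correction. It did not pass the adjustment over all probes tested (limma adjusted p = 1.00), and the exact permutation test gave p = 0.143. On slide 1 it was 0.28 and on slide 2 it was 1.20. HBE1, the embryonic beta-type chain, was well above background on no array. The pseudogene HBBP1, which lies between HBG1 and HBD, was so on 3 of 15 arrays, 1 each in untreated SCC13-TLR4, SCC13-pUNO with LPS and SCC13-TLR4 with LPS cells.

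No gene of the chromosome 16 cluster with a probe showed the split either, and HBA1 had none by accession. HBA2, an adult alpha chain, had 3 probes. A_33_P3258362 lay between -2.91 and -1.61 and A_23_P26457 between -2.45 and -1.66, each marked above background on the 15 arrays. The third, A_24_P142305, lay between -4.45 and -2.89 and was well above background on 12. With LPS the line differences of these probes were 0.31 (SE 0.25), 0.21 (SE 0.17) and -0.16 (SE 0.33), with no agreement in direction and with overlapping groups. Each had a limma adjusted p of 1.00.

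HBZ, the embryonic alpha-type chain, had 3 probes that disagreed on whether it was detected at all. A_33_P3421827 was well above background on all 15 arrays. It read -2.34, -1.76, -2.24 and -2.26 in untreated SCC13-pUNO and -2.03, -1.5 and -2.01 in untreated SCC13-TLR4 cells, and -2.59, -2.16, -2.01 and -1.83 in SCC13-pUNO and -1.70, -1.60, -1.82 and -2.04 in SCC13-TLR4 cells with LPS. With all arrays the untreated groups overlapped, with a difference of 0.31 (SE 0.20, limma adjusted p = 0.999). Without the array labelled replicate 2 they did not, with a difference of 0.44 (SE 0.20, limma adjusted p = 1.00). The exact permutation p of this 3 against 3 comparison was 0.1, the smallest possible. With LPS the groups overlapped, with a difference of 0.36 (SE 0.19, limma adjusted p = 1.00). A_21_P0011413 was well above background on 3 of 15 arrays and A_33_P3252534 on none. HBQ1, the theta chain, passed the background mark on each of the 15 arrays, with values between -1.57 and -0.57. The line difference was 0.31 (SE 0.20) untreated, 0.30 (SE 0.23) without the array labelled replicate 2, and -0.09 (SE 0.19) when LPS was given, with overlapping groups each time.

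Over the family, 5 of the 12 probes were well above background on all 15 arrays, 3 on none and 4 on some. Besides HBB, 7 probes of HBD, HBG1, HBA2, HBZ and HBQ1 passed the filter, which asked for the background mark on each array of 1 group or more, and entered the fit. These 7 are not all members, since probes too dim to test had to be left out. HBA2 A_24_P142305 passed only through untreated SCC13-TLR4 cells, with 3 of 3 arrays. HBD passed only through SCC13-TLR4 cells with LPS, with 4 of 4. Entry by this route favours higher values in that line. With LPS their line differences ranged from -0.16 to 0.74 with a median of 0.21, against a median of -0.01 over the 22676 probes tested. Without treatment and without the array labelled replicate 2 they ranged from 0.13 to 0.46 with a median of 0.20, against -0.01 over all tested. All 7 were positive there. With all arrays they ranged from -0.02 to 0.38 with a median of 0.27, against -0.02 over all tested, and 5 of 7 were positive. The probes share their arrays, and HBA2 contributed 3 of the 7. HBA2 A_24_P142305 was the highest in both untreated comparisons, at 0.46 and 0.38. The counts of positive signs are therefore a description and not a test.

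No globin probe passed an adjusted p of 0.05 in the limma fit of the 15 arrays, and neither did any other probe. Among those that did not pass was TLR4 A_24_P69538, of the gene on the plasmid. Its line difference was 6.32 untreated (SE 1.59, limma adjusted p = 0.999) and 8.86 with LPS (SE 1.47, limma adjusted p = 0.312). Its SE holds the array labelled replicate 2, as that of HBB does. The absence of calls in this fit thus does not show that the lines are alike. In each of the 4 comparisons, the lines without and with LPS and LPS against untreated in each line, 0 probes (0%) were called. At an unadjusted p under 0.05 there were 563, 614, 301 and 561 of the 22676 probes tested. The order is SCC13-TLR4 against SCC13-pUNO untreated, the same with LPS, LPS in SCC13-TLR4 and LPS in SCC13-pUNO cells. Each is a smaller share than the 0.05 of the threshold. Among the 28 tests of the 7 globin probes other than HBB, 1 had an unadjusted p under 0.05, which is also a smaller share than 0.05. Without the array labelled replicate 2, 7 probes (0.0309%) were called between the untreated lines and 10 (0.0441%) with LPS. TLR4 was among them both times. So was HBB, but it was chosen on this contrast, so its call is no test. None of the other globin probes was called.

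Arrays without overlap between the lines were counted as well. With LPS 126 probes (0.556%) were higher on all 4 SCC13-TLR4 arrays than on all 4 SCC13-pUNO arrays and 165 (0.728%) were lower. Of the 7 globin probes 0 were higher and 0 were lower. Without treatment and with all arrays, 486 probes (2.14%) were higher and 359 (1.58%) were lower, and of the 7 globin probes again 0 and 0. Without treatment and without the array labelled replicate 2, 943 probes (4.16%) were higher and 698 (3.08%) were lower. Of the 7 globin probes 2 were higher, HBA2 A_23_P26457 and HBZ A_33_P3421827, and 0 were lower.

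**Figure D3:**
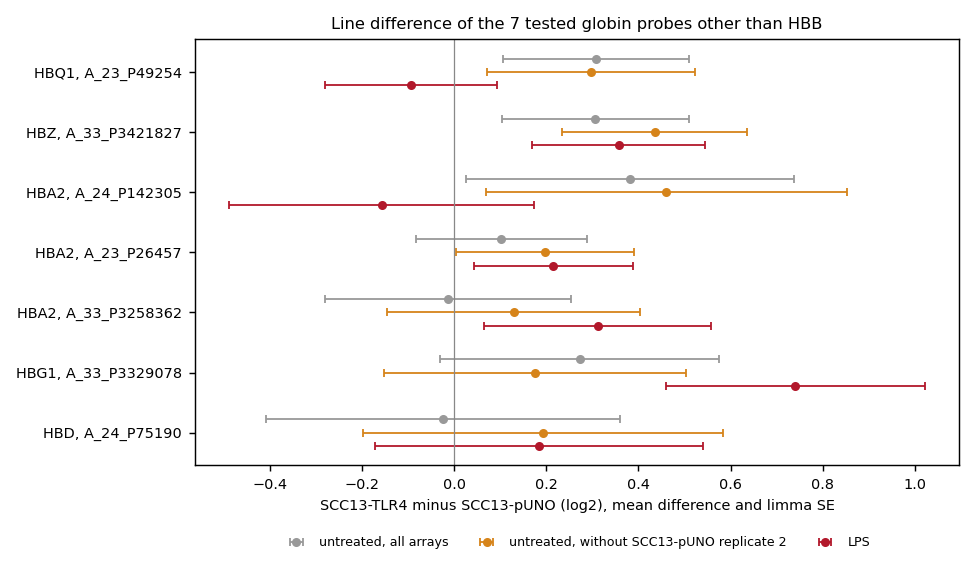
Mean log2 difference of SCC13-TLR4 minus SCC13-pUNO cells (horizontal axis, bars are limma standard errors) for the 7 tested globin probes other than HBB (vertical axis), untreated with and without the array labelled SCC13-pUNO replicate 2 and with LPS. The differences lie between -0.16 and 0.74, against a measured HBB difference of 9.99 with LPS that is not drawn.

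LPS did not move the other globins past the test. In SCC13-TLR4 cells the 7 probes differed between LPS and untreated by -0.33 (HBQ1) to 0.51 (HBG1), and in SCC13-pUNO cells by -0.29 to 0.28, or -0.14 to 0.35 without the array labelled replicate 2, where both ends of each range were HBA2 probes. No limma adjusted p was under 0.99, and the smallest exact permutation p was 0.229. HBM, an alpha-type globin outside the 9 genes, was 0.51 higher with LPS in SCC13-pUNO cells (SE 0.23, limma adjusted p = 1.00), and 0.58 higher without the array labelled replicate 2 (SE 0.25, limma adjusted p = 1.00). With all arrays it was 0.07 on slide 1 and 1.00 on slide 2, which held a single untreated SCC13-pUNO array.

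The pattern of HBB was looked for among all probes. Of 50599 probes, 2 (0.00395%) passed the background mark on all 7 SCC13-TLR4 arrays while failing it on the 7 dim SCC13-pUNO arrays. These were HBB, which was chosen for being bright in this line only, and A_23_P379789 of ST8SIA5, a sialyltransferase that builds gangliosides. The reverse pattern, on those 7 SCC13-pUNO arrays and on no SCC13-TLR4 array, was shown by 1 probe. ST8SIA5 was the only probe whose calls equalled those of HBB on all 15 arrays, the array labelled replicate 2 included. It read between -3.15 and -2.40 on the SCC13-TLR4 arrays, -2.34 on the array labelled replicate 2 and between -5.54 and -4.11 on the others. On untreated SCC13-pUNO replicate 1 it read -5.18, which was within the range of the dim arrays.

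By the root mean square difference of the centred values over the 15 arrays, the probe most like HBB was TLR4 A_24_P69538, at 0.72. HBB was chosen for being bright in the line that carries the TLR4 plasmid. A small distance to TLR4 follows from that choice and is a description, not a result. ST8SIA5 followed at 3.83, FHIT, a gene spanning a common fragile site, at 3.88, and probes of ENST00000423187 and ENST00000383417 at 3.98 and 4.11. The step from 0.72 to 3.83 reflects that this measure counts the size of a change, and HBB and TLR4 changed by far more than the others. FHIT was well above background on all 15 arrays, between -1.01 and -0.12 on the SCC13-TLR4 arrays and between -3.50 and -2.21 on the dim SCC13-pUNO arrays.

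Inside the SCC13-TLR4 line no relation between HBB and TLR4 was detected. Over its 7 arrays TLR4 ranged from 2.84 to 3.19 and HBB from 3.82 to 4.55. Pearson's r was -0.31 (exact permutation p = 0.502) and Spearman's rho -0.29 (exact permutation p = 0.556). Without the 2 arrays farthest from the median of TLR4, r was 0.38 over 5 arrays (exact permutation p = 0.5), so the sign rests on those arrays. With the array labelled replicate 2 added, r was -0.31 over 8 arrays (exact permutation p = 0.443). Neither slide held 6 arrays of the line, so no value within a slide is given. This was the only relation across arrays computed, and its adjusted p equals the raw one. Since the 15 arrays form separate clusters, no correlation over all of them is given.

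**Figure D4:**
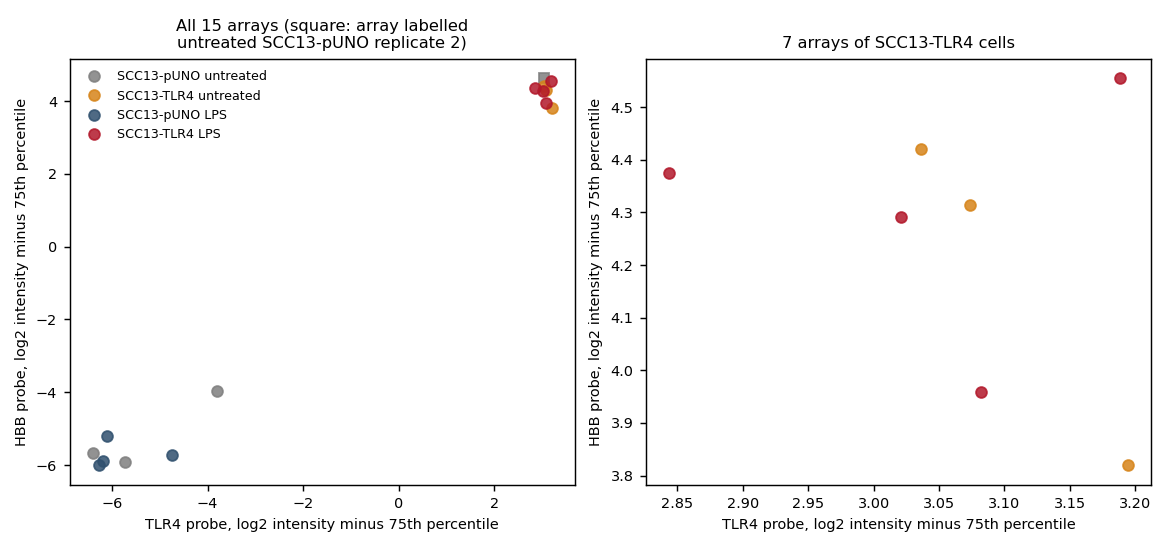
HBB against TLR4, both as log2 intensity minus the 75th percentile of the array, 1 point per array, over the 15 arrays (left) and the 7 arrays of SCC13-TLR4 cells (right). Arrays fall into a dim and a bright cluster, with untreated SCC13-pUNO replicate 1 (TLR4 at -3.80, HBB at -3.95) at the upper end of the dim one, and within the SCC13-TLR4 arrays r is -0.31.

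Genes that accompany globin in red cells were read for comparison. The list is partial, since some erythroid markers are not reported here and 7 of the 13 used were too dim to test. Of these 13 erythroid markers, 4 were well above background on all arrays and 4 on none. Those on all arrays were ANK1, EPOR, TSPO2 and TRIM58. Those on no array were AHSP, the chaperone of alpha-globin, the blood group proteins RHAG and KEL, and the nuclear protein HEMGN. In between, SLC4A1 was above background on 13 arrays, CA1 and ALAS2 on 11, EPB42 on 7 and GYPB on 1. The summed level of the list, in multiples of the 75th percentile of the array, ran from 4.63 to 4.94 in untreated SCC13-pUNO and from 4.15 to 5.20 in untreated SCC13-TLR4 cells. It ran from 4.27 to 5.06 in SCC13-pUNO and from 4.21 to 5.22 in SCC13-TLR4 cells with LPS. These ranges overlapped between the lines. The sum is carried by the brightest probes, such as ANK1, with group means of 1.26 to 1.43. Dim probes barely enter it, such as AHSP with group means of -6.24 to -5.06, so it says little of them. Of the 6 erythroid markers tested, 0 were higher and 0 lower without overlap with LPS, with a median difference of 0.01. Untreated, 1 was lower without overlap, TRIM58, a ubiquitin ligase of late red cell precursors, at -0.25 with and without the array labelled replicate 2 (limma adjusted p = 0.999 and 1.00). Of all probes tested, 1.58% were lower without overlap with that array and 3.08% without it. The median of the list untreated was -0.13 with and -0.09 without that array.

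Of 15 transcription factors of the globin loci, 11 were well above background on all 15 arrays. These were GATA2, KLF1, LMO2, LDB1, ZFPM1, BCL11A, ZBTB7A, MYB, GFI1B, NR2F2 and CHD4. GATA1 and TAL1, factors of the erythroid programme, were so on no array, NFE2 on 9 and SOX6 on 2. KLF1, an activator of HBB, had line differences of 0.17 with LPS (SE 0.28) and 0.08 without (SE 0.30), or -0.08 when the array labelled replicate 2 was left out, and BCL11A, a repressor of the fetal chains, of -0.01 with LPS and 0.16 without, or 0.10 when that array was left out. None of the 11 passed the limma test or separated the lines without overlap with LPS, and their median difference was 0.01. Untreated, none separated the lines with all arrays. Without the array labelled replicate 2, LDB1 was higher without overlap at 0.26 (SE 0.20) and NR2F2 lower at -0.25 (SE 0.23). In that comparison 4.16% of all probes tested were higher and 3.08% lower without overlap.

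All 9 enzymes of heme synthesis were tested and none separated the lines with LPS, with a median difference of 0.00. Untreated, the median was -0.13 with all arrays, where none separated the lines. It was -0.07 without the array labelled replicate 2, where CPOX was lower without overlap at -0.21 (SE 0.14). There 3.08% of all probes tested were lower without overlap. With LPS, ALAS1, the ubiquitous first enzyme of the pathway, differed by 0.14 (SE 0.09). ALAS2, its erythroid counterpart, which was well above background on 11 arrays, differed by -0.18 with LPS (SE 0.28). Of 19 genes of heme and iron handling 17 were tested, and 2 were lower without overlap with LPS, against 0.728% of all probes tested. Untreated, 0 separated the lines with or without the array labelled replicate 2. SLC48A1, a heme transporter of endosomes, differed by -0.39 (SE 0.15) and BLVRB, a biliverdin reductase, by -0.34 (SE 0.12), both with a limma adjusted p of 1.00 and an exact permutation p of 0.0286, the smallest that 4 against 4 arrays allow. The median of this list with LPS was -0.08. HMOX1, which breaks heme down, differed by -0.15 (SE 0.19).

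Among the keratinocyte markers 1 of 8 tested separated the lines with LPS, where 0.556% of all probes were higher without overlap. KRT14, a keratin of basal keratinocytes, had a mean of 3.85 ± 0.31 (SD, n = 4) in SCC13-TLR4 and 2.17 ± 0.51 (SD, n = 4) in SCC13-pUNO cells, with a limma adjusted p of 0.458 in the fit of 15 arrays and 0.0603 without the array labelled replicate 2. Between the untreated lines KRT14 differed by 0.88 with all arrays (SE 0.38), where the groups overlapped. Without the array labelled replicate 2 it differed by 1.25 (SE 0.31), and the groups did not overlap. In this last comparison 4.16% of all probes tested were higher without overlap. Whether KRT14 has a part in the HBB difference was not tested.

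Genes beside the clusters were taken within 300 kb of HBB or HBA1, members aside. Near HBB, mostly olfactory receptor genes, 20 of 41 had a probe, 0 of these were well above background on all arrays, and 12 were so on no array. None was tested. Near HBA1, 19 of 39 had a probe and 14 passed the background mark on each array, including NPRL3, whose introns hold the alpha-globin enhancers, and LUC7L. Of these 14, 0 were higher and 0 lower without overlap with LPS, with a median difference of 0.01. NPRL3 differed by -0.10 (SE 0.19).

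Globins outside the clusters were measured for comparison. MB, myoglobin, was well above background on all 15 arrays with a line difference of -0.23 with LPS (SE 0.19), and NGB, neuroglobin, on none. CYGB, cytoglobin, is named after its values were seen. It read -6.51 on untreated SCC13-TLR4 replicate 1, where its single spot was not above background, and between 1.06 and 2.88 on the 14 other arrays.

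**Figure D5:**
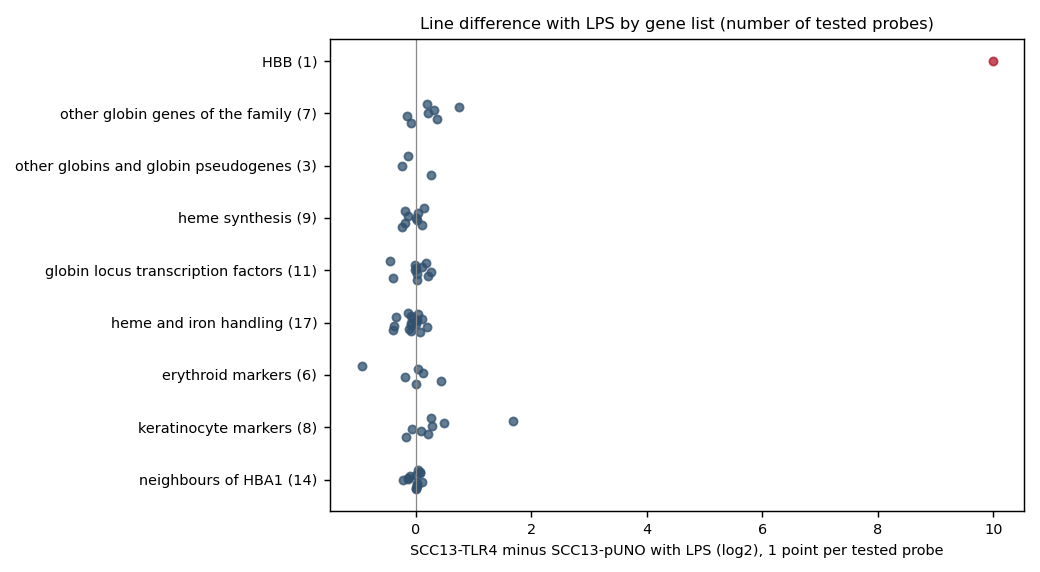
Log2 difference of SCC13-TLR4 minus SCC13-pUNO cells with LPS (horizontal axis), 1 point per tested probe, for HBB, the other tested globin probes and 7 gene lists (vertical axis, number of probes in parentheses). HBB lies at 9.99, the next in the plot is KRT14 at 1.68, and all other points lie between -0.94 and 0.74.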

How the data were processed

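Total RNA of SCC13 cells was labelled with Cy3 and hybridised to Agilent 8x60K arrays. Per the file headers, the authors extracted each spot's intensity with Feature Extraction 10.7.3.1, which subtracts the background, and made no normalization between arrays. The deposited value table repeated these intensities for all 15 arrays. Groups came from the sample labels. The methods describe tetraplicate seeding of each line, so p-values measure the spread between seedings of 1 transfected line per plasmid. The number of arrays limits the precision.

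Intensities were converted to log2, the 75th percentile of the array over its non-control spots was subtracted, outlier spots were left out and the spots of a probe averaged. A probe was called well above background where more than 50% of its spots were. Of 50599 probes, the 22676 with this call on each array of 1 group or more were tested. A complete set of values was there for 22371 of them, and for the rest the fit left out the arrays without a value. limma 3.58.1 in R 4.3.3 was fitted to all 15 arrays with 1 mean per group and Benjamini-Hochberg adjustment. The fit was checked on simulated data. Exact permutation tests were run with scipy and are two-sided. Gene symbols, and which genes neighbour each other, came from a RefSeq table of a newer assembly, and 28174 probes had a symbol. For a gene of a list its brightest probe was used. A lower bound sets the mean of the bright group against the mean, over the dim arrays, of the higher of the probe's own value and the lowest log2 value well above background on that array.

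The members, lists and tests were chosen with earlier results of these data known. The text names every probe of the family and of TLR4, the probes with the calls of HBB on all arrays, the 5 tested probes closest to it, every transcription factor listed, and from each list at most 4 genes, those with the largest difference with LPS among genes whose arrays do not overlap; other list genes are named as examples, after their values were seen. Some erythroid markers are not reported here and were left out of their list. Leukocyte and endothelial markers were also counted. Of 6 leukocyte markers with a probe, 3 were well above background on all arrays (PTPRC, CD14 and SPI1), and of 5 endothelial markers 1 was (CDH5). None of those tested separated the lines with LPS. Between the untreated lines PTPRC was higher without overlap, by 0.70 with all arrays and 0.65 without the array labelled SCC13-pUNO untreated replicate 2. Of all probes tested, 2.14% were higher without overlap with that array and 4.16% without it.

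Same-numbered arrays of the lines with LPS deviated together, with correlations of 0.38 to 0.62 over probes in the 4 pairs. They were treated as paired in an alternative fit. Each of these pairs also lay on the same slide, so pairing and slide cannot be told apart in these correlations. In the other comparisons the correlations were of both signs. The alternatives tried were background correction by normexp (offset 50), quantile normalization, other filters on dim probes, outlier spots kept, the replicate number or the slide in the fit, only the groups compared, and leaving out each array.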

Additional observations from a re-analysis of the deposited data

Results flagged for a closer look

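Among 38 groups of 4 arrays of the globin, TLR4 and HBB-like probes, 2 held an array far from the other 3, and chance gives about 1 in 20 such groups. HBZ A_21_P0011413 read -4.09 on SCC13-TLR4 replicate 4 with LPS against -4.59 to -4.51 on the other 3 arrays. That was the only one of the 4 arrays on which it was well above background. The probe of ENST00000383417 read -5.85 on untreated SCC13-pUNO replicate 4 against -3.23 to -2.79. HBB itself was not singled out in untreated SCC13-pUNO cells, where replicate 2 at 4.63 lay far from the other 3 but the spread among those 3, -5.92 to -3.95, was wide.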

How the results depend on the processing

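The number of probes called in each comparison was 0 in the fit of 15 arrays and with the replicate number as a block (paired fit), which changed no call. It was 11 (untreated lines) and 22 (lines with LPS) with slide in the fit and without the array labelled SCC13-pUNO untreated replicate 2, and 5 for the lines with LPS when only these groups were fitted. Leaving out each array gave 0 to 7 calls between the untreated lines, 0 to 10 with LPS, 0 to 3 for LPS in SCC13-TLR4 and 0 to 1 in SCC13-pUNO cells. The highest counts came without untreated SCC13-pUNO replicate 2 (7 and 10), without untreated SCC13-TLR4 replicate 3 (3, and 3 for the untreated lines) and without SCC13-pUNO replicate 2 with LPS (1). The HBB difference between the untreated lines, 6.91, became 4.55 with normexp, 9.34 with slide and without the array labelled replicate 2, and 5.85 to 9.36 leaving out each array. With LPS it was 9.99, and 6.24 with normexp. The LPS difference of HBB in SCC13-TLR4 cells turned from 0.11 to -0.000315 with slide in the fit and -0.073 to 0.23 leaving out each array. The correlation of HBB with TLR4 turned to 0.17 under quantile normalization and 0.38 without the 2 arrays farthest from the median of TLR4. Of 332 recomputed line differences of other globin probes, 20 turned sign in 7 of 14 comparisons and none passed an adjusted p of 0.05. Between the untreated lines, HBD turned to 0.10 with slide and 0.27 with slide and without the array labelled replicate 2, with a range of -0.22 to 0.19 leaving out each array, and HBA2 A_33_P3258362 to 0.20 and 0.29, with a range of -0.19 to 0.13. With normexp, HBD turned to -0.10 with LPS, and HBA2 A_23_P26457 to -0.037 untreated and -0.00206 with LPS. Leaving out each array with LPS gave ranges of -0.11 to 0.41 for HBD, -0.34 to 0.12 for HBA2 A_24_P142305 and -0.24 to 0.041 for HBQ1. Globin probes on all arrays numbered 5, 7 by the positive-and-significant mark and 5 by the 99th percentile of negative controls. The cause of these changes was not tested. HBE1, one HBG1 probe and one HBZ probe were not well above background on any array.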
